A study of Mus musculus with 6106 samples.

Results

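The actin cytoskeleton genes described here are 37 listed genes that encode the actins of T cells, the proteins that bind actin monomers, the proteins that cut, cap, branch, elongate, crosslink and anchor the filaments, and signalling proteins that direct them. They were taken from a table of 23725 genes. All 37 met the minimum of 20 UMIs (unique molecular identifiers, each standing for 1 counted transcript molecule) over the cells used, a minimum met by 10113 genes in all. The cells were Foxp3+ regulatory T cells (Tregs), a class of lymphocyte that restrains other immune cells, taken from the spleens of B6 Nr4a1-Gfp Foxp3-Ires-Thy1.1 males at 10 months of age. All groups carried both reporters, in which GFP reports Nr4a1, a gene induced by the T cell receptor (TCR), and Thy1.1 reports Foxp3. DAPI- TCRb+ CD4+ Thy1.1+ cells were sorted by GFP into GFPlow (0 to 20% of the GFP range), GFPmed (40 to 60%) and GFPhigh (80 to 100%), and no further treatment is given in the labels. Each bin gave 1 library by inDrops, a droplet method that captures transcripts by their poly(A) tails. With 1 library per bin no test between bins was possible. Intervals cover counting error only, and library and bin cannot be told apart. The number of mice behind a library is not given in the sources used here.

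Actin exists as monomers and as filaments that grow at one end and are taken apart at the other. Thymosins and profilin hold the monomer pool, cofilin and its partners cut old filaments, and the Arp2/3 complex starts branches when WASP family proteins activate it. In T cells this network drives migration, spreading on antigen-presenting cells and the build-up of the immune synapse, where the TCR signals. Monomeric actin also holds the coactivators of serum response factor (SRF) in the cytoplasm. SRF binds a DNA element named the CArG box, through which it controls many actin genes.

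Of 6106 deposited cells a minimum of 500 UMIs per cell left 89.5% of GFPlow, 91.4% of GFPmed and 86.5% of GFPhigh. From here on 3 values in a row stand for GFPlow, GFPmed and GFPhigh in that order unless bins are named. Each library gave 2270376 to 2512277 UMIs. Cells of GFPmed were deeper, with a mean of 1147.4, 1634.5 and 1279.1 UMIs per used cell. Pairs of libraries shared 20 to 29 cell barcodes among the cells used. All 8 T cell markers and all 8 Treg markers were measured, and the Treg markers summed to 2443, 2703 and 3962 UMIs per 1000000 UMIs of a library (UPM), highest in GFPhigh. Of 45 listed markers of other cell types 44 were in the table and 5 had 0 UMIs (S100a8, S100a9, Ppbp, Gp1bb and Gp1ba). GFPmed stood apart in erythroid markers, which summed to 1399, 3002 and 1051 UPM, and in myeloid markers, which summed to 78, 222.9 and 84.1 UPM. GFPhigh stood apart in plasma cell markers, which summed to 101.4, 66.9 and 329.5 UPM. Markers of CD8 T or NK cells summed to 50.1, 118.2 and 61.2 UPM and those of B cells to 224.2, 309.3 and 291.6 UPM. Cells with at least 2 UMIs of markers of other cell types made up 5.70%, 10.9% and 8.73% of the cells.

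Promoter sequence is shown for 4 genes on which the results turn: Actg1, in whose promoter a CArG box was found, both beta-thymosin genes, which went opposite ways between bins, and Flna, which differed most. Each is 120 of the 250 bases before a RefSeq start, the nearest to that start that lie in no GENCODE M21 exon of the gene. They are given 5′ to 3′ on the gene's strand, all minus, from RefSeq's GRCm38.p6 promoter table. The Flna stretch lies within the span that GENCODE M21 gives for that gene, chrX:74223461-74249820, and not beside it. Capitals mark matches on either strand to GGGCGG, known as the GC box, or to the CArG box.
Actg1 chr11:120348543-120348662: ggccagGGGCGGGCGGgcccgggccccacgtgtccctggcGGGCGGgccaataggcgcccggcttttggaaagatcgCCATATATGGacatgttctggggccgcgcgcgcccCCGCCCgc
Tmsb4x chrX:167209316-167209435: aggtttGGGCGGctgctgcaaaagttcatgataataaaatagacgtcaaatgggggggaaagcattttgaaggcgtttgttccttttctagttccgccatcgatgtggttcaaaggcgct
Tmsb10 chr6:72958749-72958868: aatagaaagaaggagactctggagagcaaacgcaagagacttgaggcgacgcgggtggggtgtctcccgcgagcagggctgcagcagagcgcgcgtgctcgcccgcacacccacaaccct
Flna chrX:74246556-74246675: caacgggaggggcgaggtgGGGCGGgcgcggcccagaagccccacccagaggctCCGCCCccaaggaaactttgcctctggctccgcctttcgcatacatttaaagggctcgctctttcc
The Actg1 stretch held 1 CArG box, which began 90 bases before the RefSeq start, and 4 GC boxes, of which the pair nearest its 5′ end overlap. The Tmsb4x stretch held 1 GC box and the Flna stretch 2. The Tmsb10 stretch held neither motif, but a GC box was found in the 250 bases before the start of at least 1 of its 3 promoter entries. Over both strands of the 250 bases before the start, a CArG box was found for 2 of the 33 actin cytoskeleton genes in the table (6.06%; Actg1 and Arpc4) and for 1.62% of its 27025 genes. A GC box was found for 24 of the 33 (72.7%) and for 35.4% of all genes. TATAAA was found for 2 of the 33 (6.06%; Cdc42 and Arhgdib) and for 14.3% of all genes. A gene with several entries matched if any of them did. The shares of all genes include genes not counted in these cells, and shares over abundant genes alone were not taken. Actb, Twf2, Cotl1 and Rac2 had no entry in that promoter table, so their promoters were not searched. A match describes letters only and was not tied to binding.

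The network as a whole took a smaller share of the transcriptome in both brighter bins. Summed over the 37 genes it made up 5.32%, 4.59% and 4.56% of UMIs. The log2 ratio was -0.22 for GFPhigh over GFPlow and -0.22 for GFPmed over GFPlow, which share the GFPlow library, and -0.01 for GFPhigh over GFPmed. Without the cells that hold markers of other cell types the first 2 were -0.21 and -0.20. Few single genes differed much. A ratio of at least 1.5-fold was reached by 0 genes upward and 2 downward, Flna and Gmfg, in GFPhigh over GFPlow, where 12.8% of the 10113 genes with at least 20 UMIs were higher and 8.45% lower by that fold. In GFPmed over GFPlow it was reached by 0 upward and 1 downward, Dock2, against 8.63% and 8.23% of all genes. In GFPhigh over GFPmed it was reached by 0 in either direction, against 10.8% and 6.87%. All of the 37 genes but Cap1 had at least 500 UMIs, and fewer such genes differed: among the 2317 genes with at least 500 UMIs, 3.67% were higher and 4.14% lower by 1.5-fold in GFPhigh over GFPlow, 1.08% and 2.29% in GFPmed over GFPlow, and 3.41% and 0.993% in GFPhigh over GFPmed. At a lower limit of 0.32 on the log2 scale, 1 of the 37 genes was higher and 7 lower in GFPhigh over GFPlow (25% and 18.1% of all genes). At that limit 1 was higher and 8 lower in GFPmed over GFPlow (18.7% and 20.9%), and 3 and 2 in GFPhigh over GFPmed (25.2% and 15.5%). These shares are over the 10113 genes. Among the 2317 genes with at least 500 UMIs the shares past that limit were smaller in each pair and direction. Beside those genes, a larger share of the 37 was lower, and a smaller share higher, in both pairs that involve GFPlow. By 2-fold, 0 were lower in GFPhigh or GFPmed over GFPlow (2.99% and 2.61% of all genes).

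The shift was small in most genes and mostly downward from GFPlow. The median log2 ratio of the 37 genes was -0.11 in GFPhigh over GFPlow and -0.13 in GFPmed over GFPlow, beside 0.05 and -0.03 over all genes tested. Over the 2317 genes with at least 500 UMIs the medians were 0.01 and -0.07. In GFPhigh over GFPlow 27 of 37 genes were lower, and the interval lay below 0 for 18 and above 0 for 6. Of those 2317 genes 1111 were lower, with the interval below 0 for 450 and above 0 for 533. In GFPmed over GFPlow 28 were lower, with the interval below 0 for 19 and above 0 for 2, and 24 were lower when ribosomal protein UMIs were left out of the scaling. Most of the 2317 genes were lower in this pair too, with a median of -0.07. More of their intervals lay below 0 than above it, so a downward lean in this pair was not particular to the set. In GFPhigh over GFPmed 22 of the 37 were higher and 15 lower, with a median of 0.03 beside 0.08 over all genes. Of the 2317 genes 1459 were higher and 858 lower, so this split was not particular to the set. Under TMM scaling (trimmed mean of M values, which equalizes the bulk of genes) the 37 split into 14 higher and 23 lower. Their median was then -0.04. GFPlow had the highest level of 25 of the 37 genes, GFPmed of 4 and GFPhigh of 8, which was not counted over all genes. The genes also parted by where along the bins they differed. In 10 genes only the step from GFPlow to GFPmed had an interval below 0, with the next step's interval holding 0, Actb, Cfl1, Rhoh, Dock2 and Msn among them. In 4 genes, Tmsb4x, Gmfg, Flna and Lcp1, both steps lay below 0. In 5 genes, Actg1, Pfn1, Capza2, Capzb and Actr3, the first step lay below 0 and the second above it. These classes rest on scaling by library size, and were counted neither over all genes nor under TMM scaling. Under TMM the second-step ratios of Cfl1, Rhoa and Dock2 turned from above to below 0, so membership of a class can depend on the scaling.

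**Figure D1:**
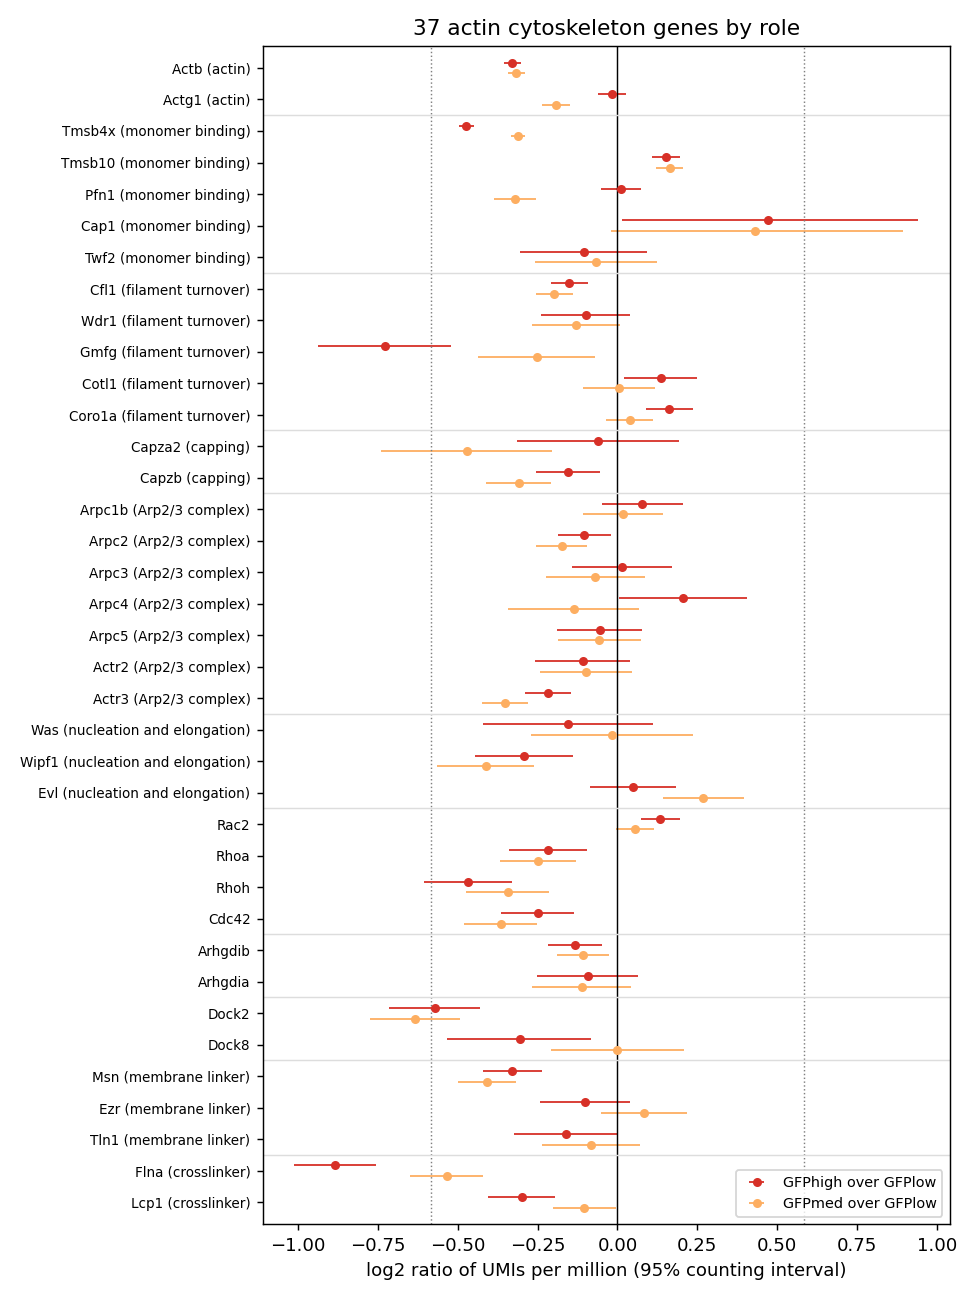
Log2 ratios of UPM for the 37 actin cytoskeleton genes, grouped by role, for GFPhigh over GFPlow (red) and GFPmed over GFPlow (orange). Bars are 95% counting intervals and dotted lines mark 1.5-fold; Flna and Gmfg lie past the line in red, and Dock2 in orange.

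The cytoplasmic actins differed in their pattern. Actb (chr5:142903115-142906754, minus strand in mm10) encodes beta-actin, the main filament protein of the cell cortex. It was counted at 10914, 8763 and 8689 UPM, with a log2 ratio of -0.33 (95% interval -0.36 to -0.30) for GFPhigh over GFPlow and -0.01 (95% interval -0.04 to 0.02) for GFPhigh over GFPmed. Both brighter bins were thus below GFPlow and close to each other. Actg1 (chr11:120345690-120348542, minus strand) encodes gamma-actin, which differs from beta-actin in a few residues at the amino terminus. It was counted at 3648, 3195 and 3603 UPM, lowest in GFPmed, and its ratio of GFPhigh over GFPlow was -0.02 (95% interval -0.06 to 0.03). UMIs of Actb per UMI of Actg1 were 2.99, 2.74 and 2.41, with 95% intervals that do not overlap. Actb ranked as gene 3 by UMIs in GFPlow and 4 in both other libraries.

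Among the monomer-binding proteins the beta-thymosins went opposite ways. Tmsb4x (chrX:167207093-167209315, minus strand), whose product thymosin beta-4 binds actin monomers and keeps them out of filaments, was counted at 15001, 12084 and 10800.4 UPM. Its level stepped down at each bin, with a log2 ratio of -0.47 (95% interval -0.50 to -0.45) for GFPhigh over GFPlow and -0.16 for GFPhigh over GFPmed. Tmsb10 (chr6:72957347-72958748, minus strand), its close relative, was counted at 3412, 3821 and 3794 UPM and was higher in both brighter bins, by 0.15 (95% interval 0.11 to 0.20) for GFPhigh over GFPlow. UMIs of Tmsb4x per UMI of Tmsb10 were 4.40, 3.16 and 2.85. These values compare a pair within each library and do not depend on the library's scaling. Pfn1 encodes profilin, which loads monomers onto growing ends, and was counted at 1698, 1360.1 and 1711 UPM. Only GFPmed stood low for Pfn1, at -0.32 (95% interval -0.39 to -0.25) over GFPlow. Twf2, a twinfilin that binds monomers and caps ends, was counted at 185.1, 176.7 and 172 UPM, with intervals that held 0 for each pair. Cap1, which recharges actin monomers, was the rarest of the 37 genes at 29.1, 39.4 and 40.5 UPM. Its ratio of GFPhigh over GFPlow was the highest of the set at 0.47 (95% interval 0.01 to 0.94), with an interval that nearly reached 0. Actb, Actg1, Tmsb4x and Tmsb10 together held 3.30%, 2.79% and 2.69% of all UMIs, and the other 33 genes 2.03%, 1.80% and 1.87%.

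**Figure D2:**
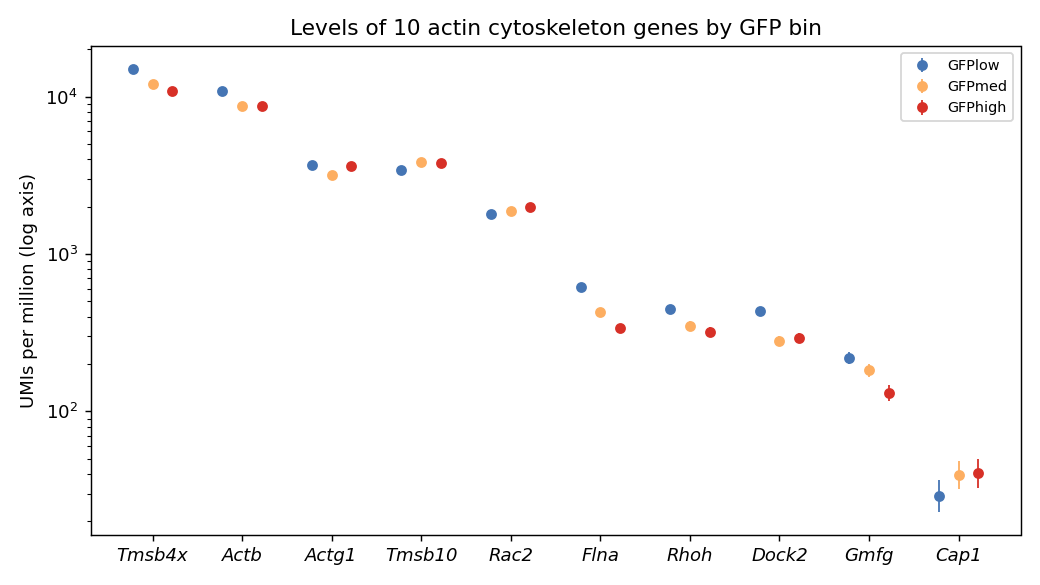
Levels of 10 actin cytoskeleton genes in UPM on a log axis, 1 point per library with its 95% counting interval. Tmsb4x, Flna and Gmfg step down from GFPlow through GFPmed to GFPhigh, while Tmsb10 and Rac2 are lowest in GFPlow.

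Filament turnover genes split between lower and higher. Gmfg (glia maturation factor gamma, chr7:28437447-28448233, plus strand), which prunes Arp2/3 branches in blood cells, was counted at 217.6, 182.7 and 131.3 UPM. It was lower at each step, with log2 ratios of -0.25 (95% interval -0.44 to -0.07) and then -0.48 (95% interval -0.69 to -0.26), and of -0.73 (95% interval -0.94 to -0.52) for GFPhigh over GFPlow. Coro1a (coronin 1A), a filament-binding protein that T cells need for survival and migration, was counted at 1217, 1250.3 and 1362 UPM and was higher in GFPhigh than in GFPlow by 0.16 (95% interval 0.09 to 0.24). Cotl1 (coactosin-like protein), which binds filaments, was counted at 505, 507 and 555 UPM, with 0.14 for that pair. Cfl1 encodes cofilin, which severs filaments, and was lower in both brighter bins at 2126.1, 1854.1 and 1915.98 UPM. Wdr1, which helps cofilin take filaments apart, was counted at 372, 339.5 and 347 UPM, with intervals that held 0. The turnover group thus held 2 genes whose interval lay above 0 and 2 below it in GFPhigh over GFPlow. Both capping protein genes were lowest in GFPmed. Capzb (beta subunit) was counted at 726, 586 and 652 UPM, and Capza2 (an alpha subunit) at 112.1, 80.8 and 107.5 UPM.

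The 7 genes of the Arp2/3 complex, the machine that starts filament branches, had log2 ratios between -0.22 and 0.20 in GFPhigh over GFPlow, and 0 of them reached 1.5-fold in any pair. Actr3, the Arp3 subunit, was counted at 1430.3, 1120.1 and 1231 UPM and had the lowest ratio, -0.22 (95% interval -0.29 to -0.14). Arpc4 was counted at 165, 150.5 and 190.7 UPM and had the highest, 0.20 (95% interval 0.01 to 0.40). Both ends of that range are small beside the ratio of Flna. Actr2, the Arp2 subunit, was counted at 329.7, 308 and 306 UPM. Arpc2 was counted at 1074, 951 and 999 UPM, with -0.10 for GFPhigh over GFPlow. For Actr2 and the remaining 3 subunits the interval of that pair held 0. Arpc1b, the isoform of blood cells, was counted at 420.0, 425 and 443 UPM. Arpc3 was counted at 284, 270.7 and 286.7 UPM. Arpc5 was counted at 398, 382.9 and 383.2 UPM. The sign of Arpc3 in that pair turned under TMM scaling, and those of Arpc3 and Arpc5 in GFPmed over GFPlow turned without ribosomal protein UMIs. Of the proteins that activate or extend, Wipf1 encodes WIP, the partner that stabilizes WASP, and was counted at 329.7, 247.6 and 269.1 UPM. It was lower in both brighter bins, with log2 ratios to GFPlow of -0.41 in GFPmed and -0.29 in GFPhigh. Was, which encodes WASP itself, lay between 95.6 and 106 UPM. Evl, an Ena/VASP protein that extends filaments, was the only gene of the 37 with the first step above 0 and the second below it, at 376, 453 and 388 UPM.

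The signalling genes Rhoh, Rhoa, Cdc42 and Dock2 were lower away from GFPlow, and Rac2 was higher in GFPhigh. Rac2, the Rac isoform of blood cells, was counted at 1804, 1874 and 1981 UPM and was higher in GFPhigh than in GFPlow by 0.13 (95% interval 0.07 to 0.19). Rhoh (chr5:65861213-65896700, plus strand), an atypical GTPase without GTP hydrolysis that takes part in TCR signalling, was counted at 444, 349.9 and 321 UPM, a log2 ratio of -0.47 (95% interval -0.60 to -0.33) for GFPhigh over GFPlow. Rhoa, which drives contractility, was counted at 506, 426 and 436 UPM. Cdc42, which sets polarity and filopodia, was counted at 589.5, 457 and 496 UPM. For these 3 genes the intervals lay below 0 in both pairs that involve GFPlow. Of the guanine nucleotide dissociation inhibitors, Arhgdib was counted at 1023, 949.7 and 934 UPM and Arhgdia at 289.01, 267.5 and 270.9 UPM, with ratios of GFPhigh over GFPlow of -0.13 and -0.09. Both listed exchange factors of the DOCK family were lower in GFPhigh than in GFPlow. Dock2 (chr11:34226815-34783892, minus strand), the Rac activator that lymphocytes need for migration, was counted at 434, 279.4 and 291.6 UPM. Its log2 ratio was -0.63 (95% interval -0.77 to -0.49) for GFPmed over GFPlow and -0.57 (95% interval -0.71 to -0.43) for GFPhigh over GFPlow, so the gene stood past the 1.5-fold line, at -0.58 on the log2 scale, in one pair and short of it in the other. Without cells that hold markers of other cell types its GFPmed ratio was -0.58, just short of the line, and with TMM scaling its GFPhigh ratio was -0.62, past it. Dock8, a Cdc42 activator, was counted at 156.4, 156.4 and 126 UPM and was lower in GFPhigh only.

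Linkers and crosslinkers held the gene with the largest difference. Flna (chrX:74223461-74249820, minus strand) encodes filamin A, which crosslinks filaments into a network and ties them to integrins. It was counted at 620.3, 428 and 336 UPM, and the 95% intervals of the 3 levels did not overlap. Its log2 ratio was -0.88 (95% interval -1.01 to -0.76) for GFPhigh over GFPlow, -0.53 (95% interval -0.65 to -0.42) for GFPmed over GFPlow and -0.35 (95% interval -0.49 to -0.21) for GFPhigh over GFPmed. Lcp1 (L-plastin), which bundles filaments in blood cells, was also lower at each step, at 708, 659 and 575 UPM. The membrane linkers did not share one pattern. Msn (moesin), the main ERM protein of lymphocytes, was counted at 929, 699.8 and 740.0 UPM and was lower in GFPhigh than in GFPlow, at -0.33 (95% interval -0.42 to -0.24). Ezr (ezrin), its relative, was counted at 357, 378 and 333 UPM, so that UMIs of Msn per UMI of Ezr were 2.61, 1.85 and 2.23. Tln1 (talin), which couples integrins to actin, was counted at 289.8, 273.9 and 258.99 UPM, with a GFPhigh over GFPlow ratio of -0.16 (95% interval -0.32 to -0.00). Levels count 3′ ends of transcripts and are not divided by gene length.

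Counts per cell were also highest in GFPlow, with GFPmed and GFPhigh close to each other. Each cell was thinned to 500 UMIs at random, so that depth was equal and 0 cells were lost. The 37 genes then gave a median of 26, 23 and 22 and a mean of 26.5, 22.98 and 22.99 UMIs per cell, and the lowest and highest cells held 2 and 64, 0 and 47, and 3 and 52. A UMI of Tmsb4x was seen in 99.3%, 99.0% and 98.4% of thinned cells (99.8%, 99.7% and 99.7% unthinned) and of Actb in 96.7%, 95.1% and 96.1% (99.3%, 98.8% and 98.7% unthinned). The share with Flna was 23.6% (95% exact interval 21.8 to 25.4), 18.2% (16.3 to 20.2) and 13.3% (11.7 to 15.0), beside 39.4%, 36.9% and 27.04% unthinned. The share with Gmfg was 9.47%, 8.26% and 6.31% (20.3%, 21.9% and 14.4% unthinned). The share with Dock2 was 18.0%, 12.5% and 12.8% (33.8%, 31.8% and 27.1% unthinned). Flna was thus seen in fewer cells at each step. The shares were not set beside a cell type that lacks these genes, so the part of free RNA was not tested. The spread between cells was wide for the actins. The variance over the mean of thinned Actb counts was 1.98, 1.84 and 1.83, beside medians of 1.48, 1.26 and 1.28 over 4, 14 and 6 genes within 1.5-fold of its mean. For Actg1 it was 1.75, 1.51 and 1.54, beside medians of 1.19, 1.15 and 1.20 over 46, 56 and 54 such genes. For Tmsb10 it was 1.12, 1.19 and 1.33, close to its like genes (1.19, 1.18 and 1.21) in GFPlow and GFPmed and above them in GFPhigh. Actr3 was uneven at 1.62, 1.44 and 1.52, beside medians of 1.14, 1.19 and 1.19 for its like genes.

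**Figure D3:**
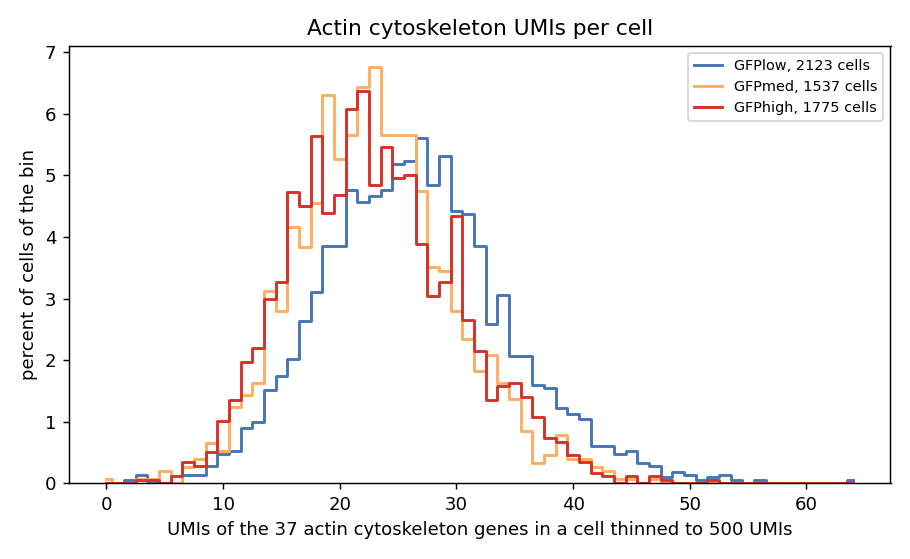
Percent of cells of each bin (y axis) by UMIs of the 37 actin cytoskeleton genes in the cell after thinning to 500 UMIs (x axis). The GFPlow curve lies to the right of the others, with a median of 26 UMIs against 23 in GFPmed and 22 in GFPhigh.

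A gene outside the set followed Actb closely, and its transcript carries Actb-like sequence. Of 589 genes with a mean of at least 0.1 UMI per thinned cell, Lrrc58, which encodes a leucine-rich repeat protein, had the highest correlation with Actb, at 0.47, 0.44 and 0.44 over the cells of each bin. Actg1 came next at 0.21, 0.14 and 0.13. Malat1, Actr3 and Anxa6 completed the leading 5 with values of at most 0.13, which are weak. These correlations describe cells of the same library at the same depth. Cells with 0 or 1 UMI of Actb held on average 0.577, 0.587 and 0.664 UMIs of Lrrc58, and cells with 10 or more held 3.05, 2.96 and 3.00. The transcripts of both genes in GENCODE M21 share 283 windows of 40 identical bases. The shared bases form 13 runs between positions 509 and 1889 of the Actb transcript, where the nearest run ends 31 bases before the 3′ end, in the same order in Lrrc58, where the last run ends 4628 bases before the end of a transcript of 8604 bases. In the last 500 bases of the Actb transcript 16.1% of the windows are shared with Lrrc58. Lrrc58 was counted at 3296, 2805 and 2860.3 UPM, or 0.302, 0.320 and 0.329 of the Actb count. How reads that match both genes were assigned is not given in the sources used here, so the split between them is uncertain. With the Lrrc58 UMIs added to Actb, a comparison chosen after the correlation was seen, the log2 ratio of GFPhigh over GFPlow was -0.30 in place of -0.33.

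**Figure D4:**
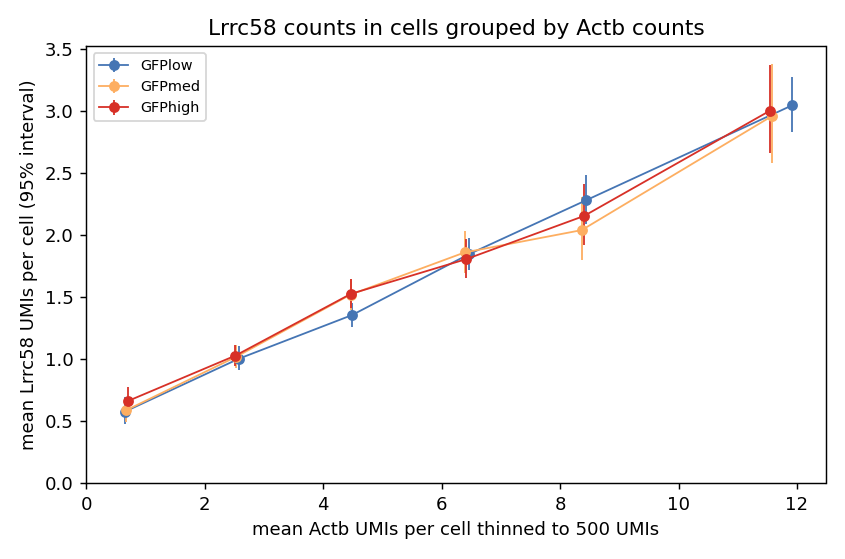
Mean Lrrc58 UMIs per thinned cell (y axis, 95% Poisson interval) in cells grouped by their Actb UMIs, plotted at the mean Actb UMIs of the group (x axis), for each GFP bin. In all 3 bins Lrrc58 climbs across the groups, from 0.577 to 3.05 UMIs per cell in GFPlow.

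Other genes of the set also have close copies. In the last 500 bases, 69.2% of the 40-base windows of Tmsb10, 58.4% of Gmfg and 47.5% of Actr3 occur in annotated genes that are not rows of the count table, so reads there could match more than one place. In the same stretch 15.6% of Was and 6.29% of Cfl1 windows occur in genes of the table. Tmsb4x, Pfn1, Flna, Dock2, Coro1a, Msn and Lcp1 share 0% there. Levels of Actb, Tmsb10, Gmfg and Actr3 are therefore less certain than those of Tmsb4x and Flna, and the part of the copies in the ratios was not tested.

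Cells were next set apart by transcripts outside the actin set, at 500 UMIs per cell. An effector gate took cells with at least 2 UMIs of S100a4, S100a6, S100a10, S100a11, Lgals1, Vim, Itgb1 and Ccr2, and a TCR gate cells with at least 1 UMI of Nr4a1, Nr4a3, Egr1, Egr2, Egr3, Tnfrsf9, Cd83 and Irf4. Gates may overlap. Cells in neither gate, and outside a further gate that is not reported here, served as the reference. A resting gate, added after the other values were seen, took cells with at least 2 UMIs of Igfbp4, Ly6c1, Ccr7, Tcf7, Lef1, Klf2 and S1pr1. The effector gate held 30.8%, 15.7% and 15.0% of cells, the TCR gate 5.89%, 8.78% and 20.3%, the resting gate 37.5%, 34.6% and 25.9%, and the reference 35.04%, 41.3% and 42.03%. Summed actin cytoskeleton UMIs were somewhat higher in effector-gated and in resting-gated cells than in the reference. Their log2 ratio was 0.16, 0.06 and 0.06 in the effector gate and 0.03, 0.04 and 0.06 in the resting gate. In the effector gate 17 of the 37 genes (45.9%) were higher than the reference in all 3 libraries, as were 28.3% of the 766 genes with at least 500 thinned UMIs, and 0 were lower in all 3, against 21.8%. Among the 30 of the 37 genes that met the same minimum, 15 were higher (50.0%). They included Actg1 (0.33, 0.17 and 0.28), Tmsb4x (0.21, 0.06 and 0.06), Actr2 (0.63, 0.14 and 0.39), Cdc42 (0.43, 0.30 and 0.21), Dock2 (0.47, 0.41 and 0.45), Flna (0.58, 0.24 and 0.13) and Lcp1 (0.27, 0.32 and 0.19). Actb was not among them, at 0.09, 0.02 and -0.07. In the TCR gate the set was near the reference, at 0.01, 0.04 and -0.06, with 8 of 37 genes (21.6%) higher in all 3 libraries against 20.5% of 771 genes and 2, Tmsb10 and Dock2, lower (5.41% against 22.7%). In the resting gate 10 of 37 (27%) were higher in all 3 libraries against 16.4% of 764 genes, and 3, Actg1, Capza2 and Wipf1, were lower (8.11% against 15.7%). Tmsb4x was at 0.04, 0.06 and 0.23 there and Flna at 0.04, 0.11 and 0.54, so in GFPhigh both stood further above the reference in the resting than in the effector gate. Whether the gates differ was not tested.

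Differences between bins were also present inside the gates and in the reference, but were smallest in the resting gate for the sum and for Tmsb4x. The summed log2 ratio of GFPhigh over GFPlow was -0.28 in effector-gated, -0.25 in TCR-gated, -0.15 in resting-gated and -0.18 in reference cells. Actb was at -0.43, -0.38, -0.31 and -0.28 in the same order. Tmsb4x was at -0.55, -0.53, -0.22 and -0.41, and in the resting gate its level was lowest in GFPmed, at 15035, 12470 and 12904 UPM. Tmsb10 was higher in each, at 0.28, 0.35, 0.25 and 0.18. Among effector-gated cells Flna was counted at 864, 506 and 299.6 UPM, a ratio of -1.51 (95% interval -2.04 to -1.05), and at 575, 431 and 276.1 UPM among reference cells, a ratio of -1.06 (-1.41 to -0.71). In TCR-gated cells it was counted at 480.0, 415 and 327.8 UPM, a ratio of -0.56 (-1.21 to 0.13) from few UMIs, and the ratio in resting-gated cells was -0.56 (-0.93 to -0.21). Gmfg was lower in reference cells (-0.87), but its intervals held 0 in effector-gated (-0.18), TCR-gated (0.06) and resting-gated cells (-0.48). Whether the ratios differ between gates was not tested.

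**Figure D5:**
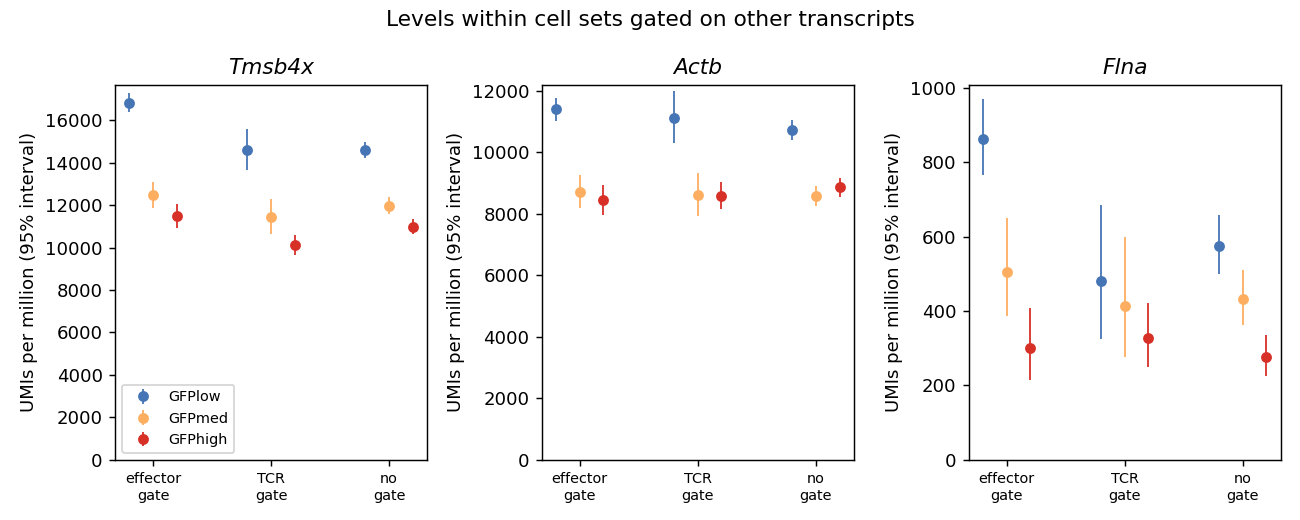
Levels of Tmsb4x, Actb and Flna in UPM (y axes from 0) in cells of the effector and TCR gates and in reference cells (no gate), 1 point per GFP bin with its 95% Poisson interval. In all 3 sets of cells GFPlow has the highest level of each gene.

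Further actin pathway genes, in 6 lists, were set beside the 37. Of the 99 with at least 20 UMIs, 5 were higher and 5 lower by 1.5-fold in GFPhigh over GFPlow (beside 12.8% and 8.45% of all genes), and their median log2 ratio was -0.05. Of the lists 4 are described here. Among 27 further linkers and crosslinkers 0 were higher and 1 lower, Tagln2 (transgelin-2), which stabilizes filaments at the synapse, at 610.0, 341 and 236.97 UPM, or -1.36 (95% interval -1.51 to -1.22). Sptan1 (alpha-spectrin) had the highest ratio of that list, 0.26. Among 17 further nucleation genes 1 was higher, the formin Fmnl3 (0.84), and 1 lower, Wasl, which encodes N-WASP (-0.72). Among 15 further turnover genes 0 were past the fold, from Ssh2 (-0.41) to Gsn (0.55). Of 6 SRF pathway genes 1 was higher and 1 lower. The lower gene, Elk4, had 20 UMIs in all and is named after its value was seen. Elk3, an SRF partner, was counted at 51.7, 63.3 and 107.9 UPM, and Srf at 64.9, 50.6 and 50.7 UPM, a ratio of -0.36 (95% interval -0.72 to -0.00).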

How the data were processed

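The authors deposited 1 table of whole UMI counts by gene and cell, from NextSeq500 reads; per the submitters' processing notes, TopHat2 and SAMtools were used with mm10. Versions, annotation, the counting program and UMI collapse are not given in the sources used here. All 6106 columns matched a labelled cell. UMIs of cells with at least 500 UMIs were summed per library and scaled to 1000000 (UPM). Log2 ratios used 0.5 added UMI, with exact conditional binomial 95% intervals; levels have exact Poisson and shares Clopper-Pearson intervals. These cover counting error only. No doublets were removed, and a count of 3 UMIs stands for 1.19 to 1.32 UPM.

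The 37 genes, the pathway and marker lists, the gates, the alternatives and the naming rule were chosen with earlier results of these data known. The rule asked for levels of genes with at least 1000 UMIs or 1.5-fold; Cap1, Capza2 and Was fall outside it, and are given too, Was as a range. Of each pathway list the highest and lowest ratio among genes with at least 100 UMIs are named, with any past 1.5-fold and some with levels. A cell gate and 2 pathway lists are not reported here. The 5 genes that follow Actb have the highest lowest-of-3 correlation.

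Thinning drew 500 UMIs per cell without replacement (seed 7). Positions come from GENCODE M21 (mm10), which held 96.2% of the table's symbols and all 37 genes. The procedure was tested on simulated data. Python 3.11.15, numpy 2.4.6, scipy 1.17.1, pandas 2.3.3, matplotlib 3.10.9, R 4.3.3 and edgeR 4.0.16 (TMM factors only) were used. Alternatives covered scaling, cell and gene minimums, added UMI, fold, gates, doublet-like, shared-barcode and other-lineage cells, and equal weight per cell.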

Additional observations from a re-analysis of the deposited data

How the results depend on the processing

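Each bin is 1 library, so no replicate could be left out and depth limits mainly Cap1, Was and Capza2. No paired analysis was possible because each bin has 1 library and no result comes from a test. The summed log2 ratio of the 37 genes kept its sign in all 9 alternatives run, for each pair of bins. It was -0.27 (GFPhigh over GFPlow), -0.19 (GFPmed over GFPlow) and -0.080 (GFPhigh over GFPmed) under TMM, and -0.14 (GFPmed over GFPlow) and -0.075 (GFPhigh over GFPmed) without ribosomal protein UMIs, which make up 25.5%, 29.3% and 25.97% of GFPlow, GFPmed and GFPhigh. Without cells with markers of other cell types it was -0.20 (GFPmed over GFPlow). Without the 2% deepest cells it was -0.21 (GFPhigh over GFPlow) and -0.20 (GFPmed over GFPlow), and with equal weight per cell -0.21 (GFPhigh over GFPlow). The sign of the single-gene ratio was kept under all 10 alternatives for single genes by 33, 31 and 26 of 37 genes for GFPhigh over GFPlow, GFPmed over GFPlow and GFPhigh over GFPmed. The median over genes of GFPhigh over GFPmed turned from 0.03 to -0.04 both under TMM and without ribosomal protein UMIs. The count of genes lower by at least 1.5-fold in GFPmed over GFPlow was 0 without ribosomal protein UMIs. It was also 0 without cells of other markers, and in both settings Dock2 dropped below 1.5-fold. With equal weight per cell 1 gene, Cap1, was higher by at least 1.5-fold in GFPhigh over GFPlow. At a limit of 0.32 on the log2 scale, 1 gene was higher and 7 lower in GFPhigh over GFPlow, 1 and 8 in GFPmed over GFPlow, and 3 and 2 in GFPhigh over GFPmed; at 2-fold 0 genes were lower in GFPhigh over GFPlow and 0 in GFPmed over GFPlow. With 1 UMI more required for a gate, the summed ratio of effector-gated cells was 0.23 in GFPlow and 0.11 in GFPmed. The sign turned for Actr2 (-0.23) and Was (0.29) in TCR-gated GFPlow cells, of which 30 were left, and for Cap1 (-0.13) in effector-gated GFPmed cells. The causes were not tested.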
